A study of Mus musculus with 36 samples.

Results

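Injury of the heart is followed by an innate immune response, and 10 of its marker genes were followed in mouse heart: Saa3, Spp1, Lgals3, Gpnmb, Arg1, Chi3l3, Clec4d, Cd14, S100a8 and S100a9. They were 10 of the 32750 gene symbols in the table, and each symbol had 1 row. They were chosen by their measured FPKM, which in ventricle was higher after surgery than without it. That comparison is therefore given as a description with no test. The comparisons of resection with sham and of day 7 with day 1 are other contrasts, but they use the same surgery libraries, so their tests are not independent of the choice.

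The genes cover several steps of an injury response. Serum amyloid A3 (Saa3) is an acute-phase protein made outside the liver by macrophages and other cells. S100a8 and S100a9 encode the subunits of calprotectin, an abundant calcium-binding protein of neutrophils and monocytes that is released as a danger signal. Cd14 is the co-receptor that hands lipopolysaccharide to Toll-like receptor 4, and Clec4d (MCL) is a C-type lectin receptor of myeloid cells that signals through the Fc receptor gamma chain. Spp1 encodes osteopontin, a secreted ligand of integrins and CD44, and Lgals3 encodes galectin-3, a carbohydrate-binding lectin. Gpnmb is a transmembrane glycoprotein of lysosome-rich macrophages. Arg1 (arginase 1) and Chi3l3 (also named Chil3 or Ym1) are widely used in the mouse as markers of alternatively activated macrophages. In an infarcted heart, neutrophils arrive first and monocyte-derived macrophages follow, and macrophages are needed for neonatal mouse hearts to regenerate.

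The study measured RNA by sequencing in 36 mouse heart libraries of the CD-1 background, in 16 groups, and no genotype or transgene is labelled. Whole ventricle was taken 1 day after resection, 1 day after a sham operation, 7 days after resection, 7 days after sham, and unoperated at postnatal day 0 (P0), P4, P7 and in adults, with n = 2 in each group. Cardiomyocytes isolated on Miltenyi columns were taken 7 days after resection, 7 days after sham, and unoperated at P0 and P4, with n = 3. Dissociated adult cardiomyocytes kept as explants were taken at 0, 24, 48 and 72 h, with n = 2. The labels do not give the age at surgery, the amount of tissue removed, what the sham operation involved, or whether a library came from 1 animal or from a pool, so p-values measure the spread between these samples, which may be technical.

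Levels are in FPKM, fragments scaled to transcript length and library size. Depth per library is unknown, since the values are not multiples of whole reads. An exact 0 is only a listed value, since in adult ventricle, in isolated cells and in 6 of 8 explant libraries the table gives 0 even for mt-Co1, a mitochondrial gene that every cell uses. Between 10454 and 13134 gene models reached 1 FPKM in a library. All libraries are labelled as cardiomyocytes. The summed level of 7 cardiomyocyte genes was between 22732 and 34253 FPKM in ventricle and between 6695 and 24475 FPKM in isolated cells, but ventricle also held leukocyte RNA. The 16 general macrophage genes found in the table summed to between 50.8 and 255 FPKM in ventricle, against 3.46 to 52.6 FPKM in isolated cells. In whole ventricle, fewer cells of a type and less RNA per cell cannot be told apart. Some surgery libraries stood apart in 6 lung epithelial genes, which summed to 218 and 97.0 FPKM in the day 7 resection ventricles, 2.57 and 26.2 FPKM in the day 7 sham ventricles, and at most 0.136 FPKM in any unoperated ventricle. The same genes summed to 600, 179 and 1173 FPKM in the 3 isolated day 7 resection libraries, against 0.435, 0.451 and 2.73 FPKM in the isolated day 7 sham libraries. On day 1 they summed to 0.515 and 0.799 FPKM after resection, against 0.148 and 13.5 FPKM after sham.

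The genes lie on several chromosomes. In mouse build mm9 the deposited gene model of S100a8 spans chr3:90472992-90473956 and that of S100a9 spans chr3:90496553-90499643, with 22596 bases between them. Chi3l3 lies elsewhere on chromosome 3, at chr3:105950471-106022425, and its model overlaps that of Chi3l4, so reads may be split between these near-identical genes. The other models are Saa3 at chr7:53967367-53971046, Spp1 at chr5:104864136-104870069, Lgals3 at chr14:47987425-48005835, Gpnmb at chr6:48986516-49020928, Arg1 at chr10:24635013-24647276 and Clec4d at chr6:123212124-123225286, and that of Cd14 is given with its values below.

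RefSeq promoter windows on build GRCm38.p6, running from 250 bases before to 50 bases after the gene start, were matched for 8 of the 10 genes. They are shown for 5 whose patterns anchor the results below: the gene with the largest day 1 difference in log2 units, the neighbouring calprotectin pair, osteopontin and Gpnmb. Capitals mark matches on either strand to TTNNGNAA (C/EBP family), TGANTCA (AP-1), GAGGAAGT (PU.1) or CATGTG (an E-box read by MITF), and matches to a listed motif may overlap another.
Saa3: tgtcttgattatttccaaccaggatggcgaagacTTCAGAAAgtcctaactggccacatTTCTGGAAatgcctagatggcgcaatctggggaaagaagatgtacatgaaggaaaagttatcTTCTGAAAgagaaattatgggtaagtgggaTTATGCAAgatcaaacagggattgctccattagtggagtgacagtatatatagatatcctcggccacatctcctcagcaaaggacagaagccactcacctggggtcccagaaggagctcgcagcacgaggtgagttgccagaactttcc
S100a8: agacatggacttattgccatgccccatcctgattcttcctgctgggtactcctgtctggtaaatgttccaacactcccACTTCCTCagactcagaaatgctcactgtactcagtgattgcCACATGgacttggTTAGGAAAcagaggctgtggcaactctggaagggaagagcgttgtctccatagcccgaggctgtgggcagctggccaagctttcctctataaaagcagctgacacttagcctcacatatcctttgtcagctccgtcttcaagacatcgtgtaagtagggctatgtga
S100a9: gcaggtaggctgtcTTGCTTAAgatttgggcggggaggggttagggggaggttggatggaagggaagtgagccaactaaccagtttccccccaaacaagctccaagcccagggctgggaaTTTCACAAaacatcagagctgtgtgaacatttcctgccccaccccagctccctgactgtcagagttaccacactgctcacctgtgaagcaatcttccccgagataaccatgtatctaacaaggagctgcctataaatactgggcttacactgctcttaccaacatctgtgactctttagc
Spp1: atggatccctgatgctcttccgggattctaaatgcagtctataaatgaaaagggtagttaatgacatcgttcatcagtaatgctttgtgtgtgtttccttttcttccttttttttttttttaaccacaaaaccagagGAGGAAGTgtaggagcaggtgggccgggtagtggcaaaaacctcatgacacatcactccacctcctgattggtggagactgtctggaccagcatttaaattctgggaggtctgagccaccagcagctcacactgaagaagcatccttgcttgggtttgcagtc
Gpnmb: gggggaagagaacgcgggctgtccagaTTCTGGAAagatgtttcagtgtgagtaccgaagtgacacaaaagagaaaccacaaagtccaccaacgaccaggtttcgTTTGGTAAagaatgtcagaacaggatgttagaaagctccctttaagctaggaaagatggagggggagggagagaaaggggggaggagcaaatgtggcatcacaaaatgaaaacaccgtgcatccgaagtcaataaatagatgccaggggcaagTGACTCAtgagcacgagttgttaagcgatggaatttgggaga
The windows are chr7:46715627-46715926 (minus strand), chr3:90668821-90669120 (plus strand), chr3:90695672-90695971 (minus strand), chr5:104434861-104435160 (plus strand) and chr6:49036268-49036567 (plus strand). The Saa3 window holds 4 C/EBP matches, at 216, 191, 129 and 99 bases before the gene start. A C/EBP match was present in 6 of the 8 windows, against 40.7% of 27025 mouse promoter windows of that length. PU.1 letters were in 2 (Spp1 and S100a8) against 3.28% of all windows, and the AP-1 letters were in 1 (Gpnmb) against 7.93%. The E-box was in 2 (Clec4d and S100a8) against 14.1%, and an NF-kappaB motif was in 1 (Lgals3) against 8.18%. A match describes letters in a window and not a bound site.

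Across all 16 groups, 9 of the 10 genes had their highest mean level in day 1 sham ventricle, and Gpnmb had its highest in day 7 resection ventricle. Unoperated neonatal ventricle had little of most of them, and the 10 genes did not form 1 pattern in the other preparations. Saa3, Lgals3, Cd14, S100a8 and S100a9 exceeded 1 FPKM in isolated cells after surgery, and Spp1, Lgals3 and Gpnmb exceeded it in cultured explants.

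**Figure D1:**
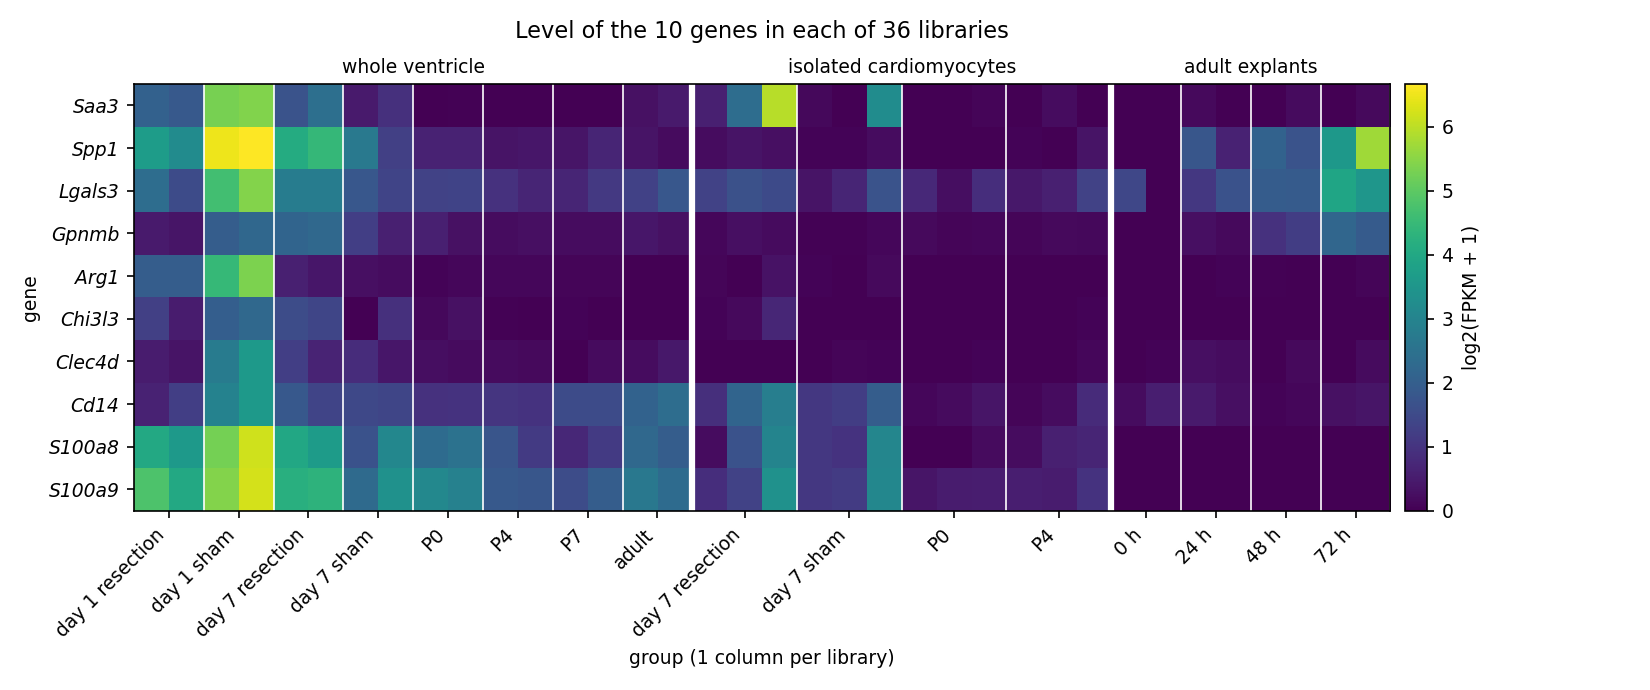
Level of each gene, as log2(FPKM + 1), in each of the 36 libraries, 1 column per library, with groups separated by white lines. On the shared scale each gene is brighter in day 1 sham than in unoperated ventricle, though Gpnmb and Chi3l3 stay dim there (means 2.10 and 2.13). Saa3 is brightest in 1 isolated day 7 resection library (61.0 FPKM), and Spp1, Lgals3 and Gpnmb brighten in explants at 72 h.

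Against unoperated neonatal ventricle (P0, P4 and P7, 6 libraries), the contrast behind the choice of the genes, both libraries of a group lay above all 6 for 8 of 10 genes in day 1 resection ventricle, where 18% of 14306 gene models did so. The number was 10 of 10 in day 1 sham (28.2% of all), 9 in day 7 resection (27.1%) and 6 in day 7 sham (21.2%). The median difference of the 10 genes from unoperated neonatal ventricle, in log2(FPKM + 1), was 1.39 for day 1 resection, 3.84 for day 1 sham, 1.84 for day 7 resection and 0.60 for day 7 sham. With a pseudocount of 0.1 the medians were 2.518 for day 1 resection and 1.056 for day 7 sham, and for day 7 sham it was 0.914 under quantile normalization, 0.331 against P0 alone and 0.382 without the second day 7 sham library. These 4 groups were set against the same unoperated libraries. Both adult libraries were exceeded as well for 6, 10, 9 and 3 genes in the same order of groups.

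Saa3 was at 3.18 and 2.63 FPKM in day 1 resection ventricle, against 38.7 and 41.4 FPKM in day 1 sham ventricle. On day 7 it was at 2.26 and 4.44 FPKM after resection, against 0.402 and 0.892 FPKM after sham. Unoperated neonatal ventricle ran from 0 to 0.0287 FPKM with a median of 0, and adults had 0.236 and 0.406 FPKM. All 8 surgery libraries thus held more Saa3 than the neonatal ones, both sham libraries of day 1 stood far above the rest, and resection and sham did not overlap on either day. Resection minus sham was -3.40 ± 0.21 on day 1 (SE, log2(FPKM + 1), limma with Benjamini-Hochberg adjusted p = 5.46e-06) and 1.37 ± 0.21 on day 7 (limma, adjusted p = 0.0251).

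The calprotectin genes moved as a pair. S100a8 was at 15.3 and 11.3 FPKM in day 1 resection, against 37.5 and 72.5 FPKM in day 1 sham, and at 15.1 and 11.7 FPKM in day 7 resection, against 2.19 and 7.55 FPKM in day 7 sham. S100a9 was at 27.2 and 15.2 FPKM in day 1 resection, against 42.5 and 74.0 FPKM in day 1 sham, and at 17.4 and 18.8 FPKM in day 7 resection, against 3.95 and 9.45 FPKM in day 7 sham. For both genes resection and sham did not overlap on either day, and the lower day 7 sham library was within the unoperated neonatal range, which ran from 0.668 to 4.72 FPKM for S100a8 and from 1.95 to 7.58 FPKM for S100a9. On day 1 resection minus sham was -1.91 ± 0.40 for S100a8 (limma, adjusted p = 0.014) and -1.42 ± 0.34 for S100a9 (limma, adjusted p = 0.0248). On day 7 the differences were 1.46 ± 0.40 and 1.41 ± 0.34, and neither passed (limma, adjusted p = 0.21 and 0.176). The S100a9 call on day 1 was lost without the second resection library (adjusted p = 0.0784), and both calls on day 1 were lost without the second sham library (adjusted p = 0.124 for S100a8 and 0.181 for S100a9). Without the second day 7 sham library, both passed on day 7, at 2.17 for S100a8 and 1.95 for S100a9.

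The receptor gene Cd14 (mm9 chr18:36884727-36886390) was at 0.550 and 1.34 FPKM in day 1 resection, against 6.77 and 11.2 FPKM in day 1 sham. Day 7 resection had 2.57 and 1.58 FPKM, against 1.73 and 1.63 FPKM in day 7 sham. It was the member with the highest unoperated level relative to surgery, at 0.922 to 1.87 FPKM in neonates and 3.24 and 4.26 FPKM in adults. The day 1 groups were far apart, the day 7 groups overlapped, and adults lay above every ventricle surgery group but day 1 sham. Resection minus sham was -2.35 ± 0.24 on day 1 (limma, adjusted p = 0.000249) and 0.18 ± 0.24 on day 7 (limma, adjusted p = 0.849).

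Clec4d was at 0.426 and 0.286 FPKM in day 1 resection, against 5.89 and 11.3 FPKM in day 1 sham, the widest gap of the 10 genes as a ratio of mean FPKM (sham over resection 24.1). Day 7 resection had 1.36 and 0.581 FPKM, against 0.797 and 0.313 FPKM in day 7 sham. Levels were high in the day 1 sham group alone, since its mean was the only one of 16 above 1 FPKM, and the day 7 groups overlapped. The limma estimate of resection minus sham was -2.77 ± 0.26 on day 1 and 0.33 ± 0.26 on day 7 (limma, adjusted p = 0.702 on day 7). The filter on low values, at least 1 FPKM in 2 libraries, was passed only through the day 1 sham group. The day 1 difference of Clec4d is therefore a description, and no p is given.

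Spp1 reached the highest FPKM, a level per transcript length, of the 10 genes. It was at 11.9 and 8.27 FPKM in day 1 resection, against 89.8 and 101 FPKM in day 1 sham, and at 16.2 and 20.9 FPKM in day 7 resection, against 5.47 and 1.38 FPKM in day 7 sham. Unoperated neonatal ventricle ran from 0.266 to 0.613 FPKM with a median of 0.429, and adults had 0.282 and 0.150 FPKM. All 8 surgery libraries lay above every unoperated one, and resection and sham did not overlap on either day. Resection minus sham was -3.13 ± 0.34 on day 1 (limma, adjusted p = 0.000333) and 2.31 ± 0.34 on day 7 (limma, adjusted p = 0.0166).

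Lgals3 was at 4.18 and 1.86 FPKM in day 1 resection, against 24.2 and 42.5 FPKM in day 1 sham. Day 7 resection had 5.95 and 6.02 FPKM, against 2.50 and 1.59 FPKM in day 7 sham. Unoperated neonates ran from 0.605 to 1.51 FPKM, and adults had 1.46 and 2.53 FPKM. The groups did not overlap on either day. Resection differed from sham by -3.10 ± 0.31 on day 1 (limma, adjusted p = 0.000249), and the day 7 difference of 1.21 ± 0.31 did not pass (limma, adjusted p = 0.176).

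Gpnmb was the only member with its highest group mean in day 7 resection. Day 1 resection had 0.405 and 0.304 FPKM, within the unoperated neonatal range of 0.161 to 0.493 FPKM, against 2.92 and 3.69 FPKM in day 1 sham. Day 7 resection had 3.46 and 3.74 FPKM, against 1.38 and 0.511 FPKM in day 7 sham. Day 7 resection and day 1 sham overlapped at the top, and day 1 resection could not be told from unoperated ventricle by range. Resection minus sham was -1.66 ± 0.20 on day 1 (limma, adjusted p = 0.000677) and 1.28 ± 0.20 on day 7 (limma, adjusted p = 0.0224).

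Arg1 was highest on day 1. It was at 2.90 and 2.88 FPKM in day 1 resection, against 21.0 and 40.0 FPKM in day 1 sham, and at 0.504 and 0.332 FPKM in day 7 resection, against 0.201 and 0.171 FPKM in day 7 sham. Neonates ran from 0.0530 to 0.0917 FPKM, and Arg1 was listed at 0 in both adult libraries. The day 1 libraries stood above all day 7 libraries, and resection and sham did not overlap on either day. In the fit, resection minus sham was -2.95 ± 0.22 on day 1 (limma, adjusted p = 2.45e-05), while the day 7 difference was 0.26 ± 0.22 (limma, adjusted p = 0.734).

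Chi3l3 was low throughout, at 1.39 and 0.429 FPKM in day 1 resection, against 3.01 and 3.77 FPKM in day 1 sham. Day 7 resection had 1.92 and 1.63 FPKM, and day 7 sham had 0 and 0.900 FPKM. Neonates ran from 0 to 0.229 FPKM, and both adult libraries were listed at 0. Resection and sham did not overlap on either day. Resection differed from sham by -1.24 ± 0.27 on day 1 (limma, adjusted p = 0.0174) and 1.01 ± 0.27 on day 7 (limma, adjusted p = 0.197). The day 1 call was lost without the second sham library (adjusted p = 0.116) and without the second resection library (adjusted p = 0.0541).

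**Figure D2:**
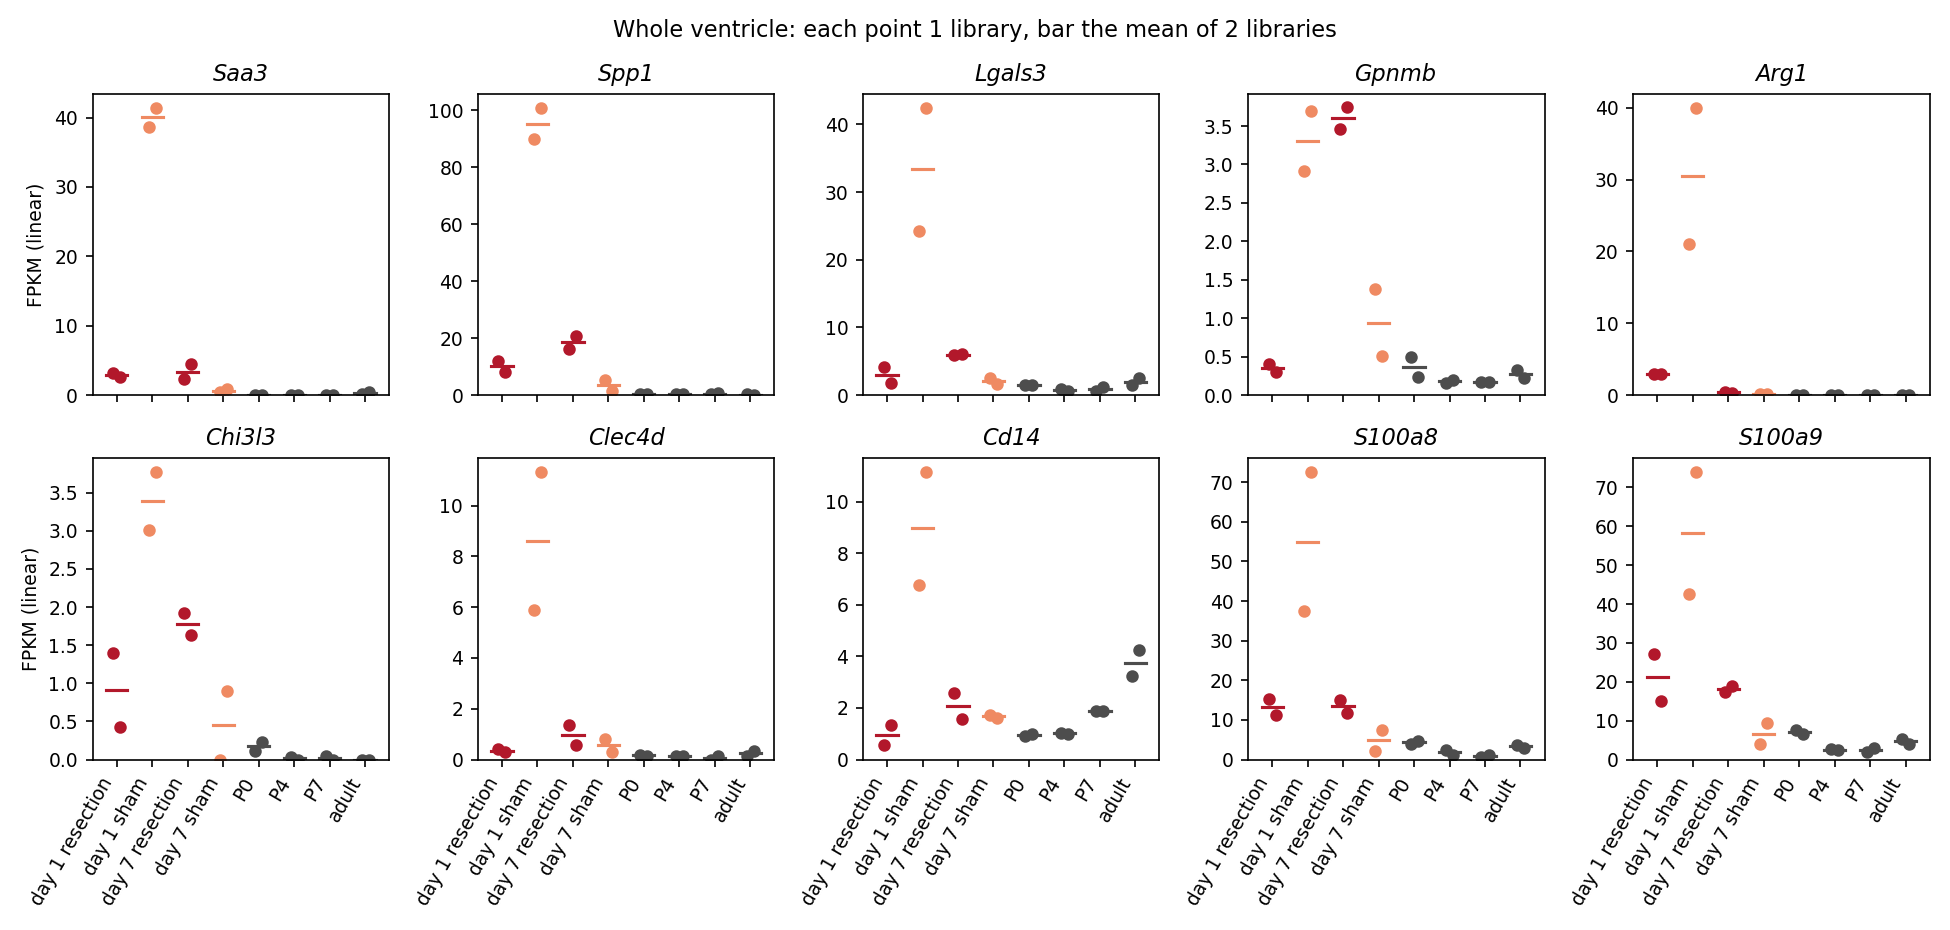
FPKM of each gene in the 16 ventricle libraries on linear axes that start at 0, with 1 point per library and a bar at the mean of each group (n = 2). The day 1 sham points lie above the day 1 resection points in every panel, and on day 7 the resection points lie above the sham points in 8 panels, Clec4d and Cd14 being the exceptions.

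On day 1, then, all 10 genes were lower in the ventricles labelled resection than in those labelled sham. No value in the files checks which libraries were resected, so each day 1 direction, and the difference between the days, rests on these labels. All 10 were called (limma, adjusted p under 0.05 for 10 of 10, against 8.88% of 14306 gene models called lower and 10.3% called in either direction). The call for Clec4d is a description, since that gene passed the filter only through day 1 sham. In day 1 sham all 10 genes lay above unoperated neonatal ventricle, the contrast behind their choice, so the day 1 result is partly set by that choice. The sham to resection ratio of mean FPKM ran from 2.74 for S100a9 to 24.1 for Clec4d, with a median of 9.47. No library of one group overlapped the other for any of the 10, where 39% of all gene models had both sham libraries above both resection libraries. The median difference was -2.56 in log2(FPKM + 1), against -0.16 over all gene models tested, and the 10 differences stayed negative after median-of-ratios scaling (-3.22 to -1.10) and quantile normalization (-2.96 to -1.03). Fitted on the day 1 libraries alone, 4 of the 10 passed. Without the second sham library, the one with lung epithelial RNA at 13.5 FPKM, 7 passed, and without the second resection library 8 passed.

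The wider myeloid lists moved the same way on day 1. Of 11 chemokine genes that recruit myeloid cells, 10 were lower in resection and none was higher. In ventricle Ccl3, Cxcl2, Cxcl3 and Cxcl5 of this list reached 1 FPKM only in the day 1 sham libraries, so their results are a description. The largest differences were in Ccl6 (7.70 and 10.4 FPKM in resection, against 71.0 and 135 FPKM in sham; -3.31 ± 0.35) and Ccl9 (2.21 and 3.24 FPKM, against 18.7 and 52.7 FPKM; -3.14 ± 0.37), ligands of the receptor Ccr1. Of 16 general macrophage genes, 11 were lower and none higher, led by the integrin Itgam (-2.60 ± 0.27) and the signalling adaptor Tyrobp (-2.05 ± 0.28). Of 10 neutrophil genes tested 6 were lower, among them the decoy receptor Il1r2 (-1.51 ± 0.23), and Stfa1 (-1.83 ± 0.35), a stefin A family gene. The defining neutrophil gene Ly6g was at 0.247 and 0 FPKM in resection, against 0 and 0.470 FPKM in sham, and was not tested.

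Among genes tied to single members, 7 of 10 lectin receptor genes of the dectin-2 cluster and their signalling partners were lower. Clec4e (Mincle), which pairs with Clec4d, had 0.0702 and 0.0609 FPKM in resection, against 1.32 and 1.70 FPKM in sham (-1.23 ± 0.14). In ventricle Clec4e reached 1 FPKM only in the day 1 sham libraries, so its call is a description. Clec4n differed by -1.89 ± 0.29. Of 9 osteopontin receptor genes 3 were lower, led by Cd44 (-1.35 ± 0.23). The S100 list was mixed, with 3 of 8 lower, led by S100a4 (-1.46 ± 0.22) and S100a11 (-0.96 ± 0.20), and S100a1, a gene of heart muscle, higher (0.54 ± 0.11; named after its value was seen). Of 6 acute-phase genes 3 were lower, led by haptoglobin Hp (-2.16 ± 0.32) and Serpina3n (-2.11 ± 0.24). The liver-type Saa1 was listed at 0 in all 8 surgery ventricle libraries.

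Other lists moved less. Of 14 genes of Toll-like receptor 4 signalling 3 were lower, led by the NF-kappaB inhibitor Nfkbia (-1.39 ± 0.21), and Tlr4 itself was at 2.78 and 3.78 FPKM in resection, against 2.999 and 5.32 FPKM in sham (-0.24 ± 0.25; limma, adjusted p = 0.562). Of 8 alternative activation genes beside Arg1 and Chi3l3, 2 were lower, the chemokine Ccl24 (-0.92 ± 0.18) and the receptor subunit Il4ra (-0.82 ± 0.24). Among 7 classical activation genes 3 were lower. Il1b and Ccl3 of that classical list passed the filter on low values only through day 1 sham, so their results are a description. Of 16 lipid-handling and lysosomal macrophage genes 8 were lower, led by heme oxygenase Hmox1 (-2.07 ± 0.27) and the scavenger receptor Msr1 (-1.56 ± 0.23), while Trem2 had 0.807 and 0.587 FPKM, against 1.12 and 1.41 FPKM (-0.42 ± 0.18; limma, adjusted p = 0.151). The resident cardiac macrophage list split, with Cd163 lower (-0.94 ± 0.25) and the fractalkine receptor Cx3cr1 higher (0.70 ± 0.18) of 10 tested. None of 5 galectin genes passed, 2 of 7 genes of the C/EBP and STAT3 list were lower, and of 12 arginine and polyamine genes Srm was lower (-1.15) and Azin1 higher (0.57). No cardiomyocyte gene of 7 and no fibroblast gene of 7 passed in either direction. Of 6 endothelial genes 1 was lower, Tie1 at 6.61 and 9.12 FPKM in resection, against 15.1 and 12.1 FPKM in sham (-0.73 ± 0.19), and 2 of 7 smooth muscle and pericyte and 2 of 7 epicardial or mesothelial genes were lower. Monocyte genes followed the macrophage list, with 5 of 7 lower, among them Ccr2 at 0.589 and 0.626 FPKM in resection, against 1.83 and 3.89 FPKM in sham (-1.21 ± 0.21), and Plac8 (-1.49 ± 0.28).

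On day 1 the marker sums of leukocytes were lower in resection, as the 10 genes were. Across all ventricle libraries the macrophage sum was highest in an unoperated adult. Adult means of the 10 genes ran from a listed 0 for Arg1 and Chi3l3 to 3.75 FPKM for Cd14 and 4.67 FPKM for S100a9. General macrophage genes summed to 52.8 and 57.6 FPKM in day 1 resection, against 134 and 188 FPKM in day 1 sham, and neutrophil genes to 17.7 and 13.2 FPKM, against 30.7 and 57.5 FPKM. The part of leukocyte content in the members' differences was not tested.

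On day 7 all 10 estimates were above 0, with that for Cd14 at -0.057 once the first resection library was left out. Saa3, Spp1 and Gpnmb were higher in resection than in sham (limma, 3 of 10 called, against 0.147% of 14306 gene models called higher), and 7 of the 10 had an unadjusted p under 0.05, against 10.9% of all gene models. The other 7 were not called. Resection libraries lay above sham libraries without overlap for 8 of the 10, where 34.2% of all gene models did so. The resection to sham ratio of mean FPKM ran from 1.23 for Cd14 to 5.42 for Spp1, with a median of 2.84. The median difference was 1.25 in log2(FPKM + 1), against 0.11 over all gene models.

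The day 7 calls rested on single libraries. No gene was called without the second resection library, 1 was called without the first resection library and 2 without the first sham library. Without the second sham library 5 were called, Gpnmb falling out while Chi3l3, S100a8 and S100a9 came in. No gene was called in the day 7 libraries alone or with a pseudocount of 0.1. The 6 lung epithelial genes moved with the same comparison: 4 were called higher in resection, led by Sftpa1 (2.24 ± 0.28) and Cxcl15 (1.85 ± 0.25). Their part in the members' differences was not tested.

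The myeloid lists were not called on day 7. None of 151 distinct genes of the 17 pathway lists passed in either direction (limma), where 0.147% of all gene models were called higher. An unadjusted p under 0.05 was found for 33 of them (21.9%, against 10.9% of all gene models). General macrophage genes summed to 194 and 148 FPKM in day 7 resection, against 93.5 and 93.7 FPKM in day 7 sham, without overlap, and the list's median difference was 0.33. Neutrophil genes summed to 16.2 and 12.3 FPKM, against 3.38 and 8.96 FPKM, with a median difference of 0.41. Ccr2 was at 1.99 and 1.66 FPKM, against 0.647 and 1.00 FPKM (0.63 ± 0.21; limma, adjusted p = 0.296), and Trem2 at 0.934 and 1.07 FPKM, against 0.221 and 0.312 FPKM (0.66 ± 0.18; limma, adjusted p = 0.197). The chemokines had a median difference of 0.06.

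**Figure D3:**
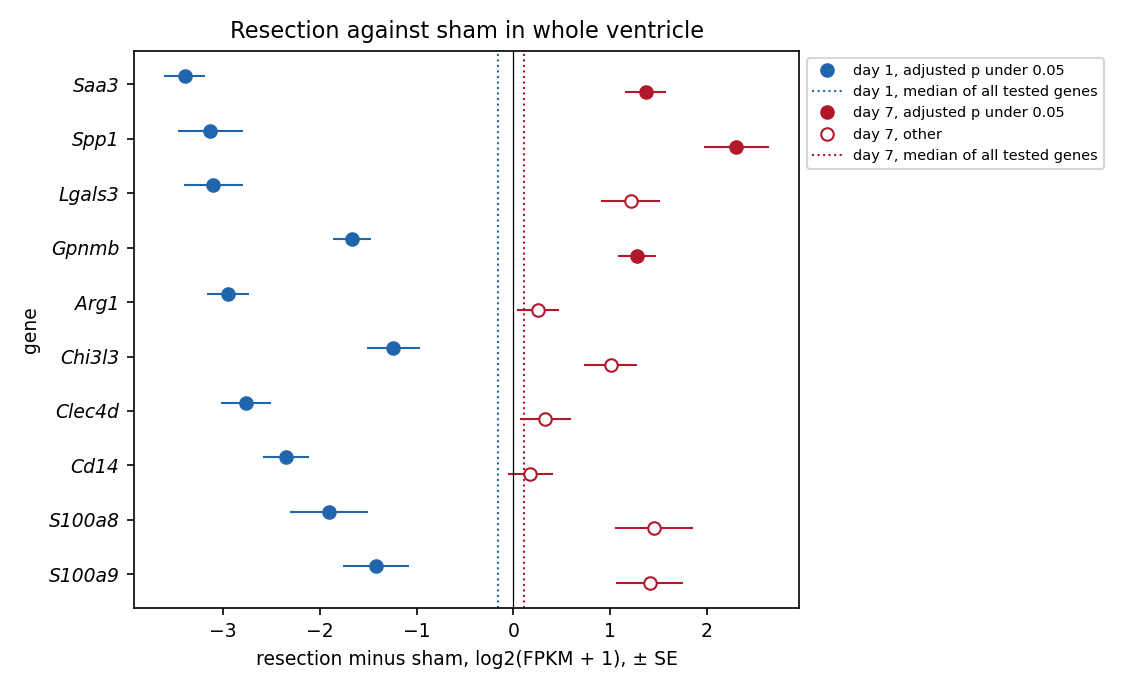
Resection minus sham in log2(FPKM + 1) with its standard error for each gene, from limma fits on the 16 ventricle libraries, day 1 in blue and day 7 in red, with filled points for adjusted p under 0.05. All 10 day 1 points lie below 0, down to -3.40 for Saa3, and all 10 day 7 points lie above 0, up to 2.31 for Spp1, with 3 of them filled.

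**Figure D4:**
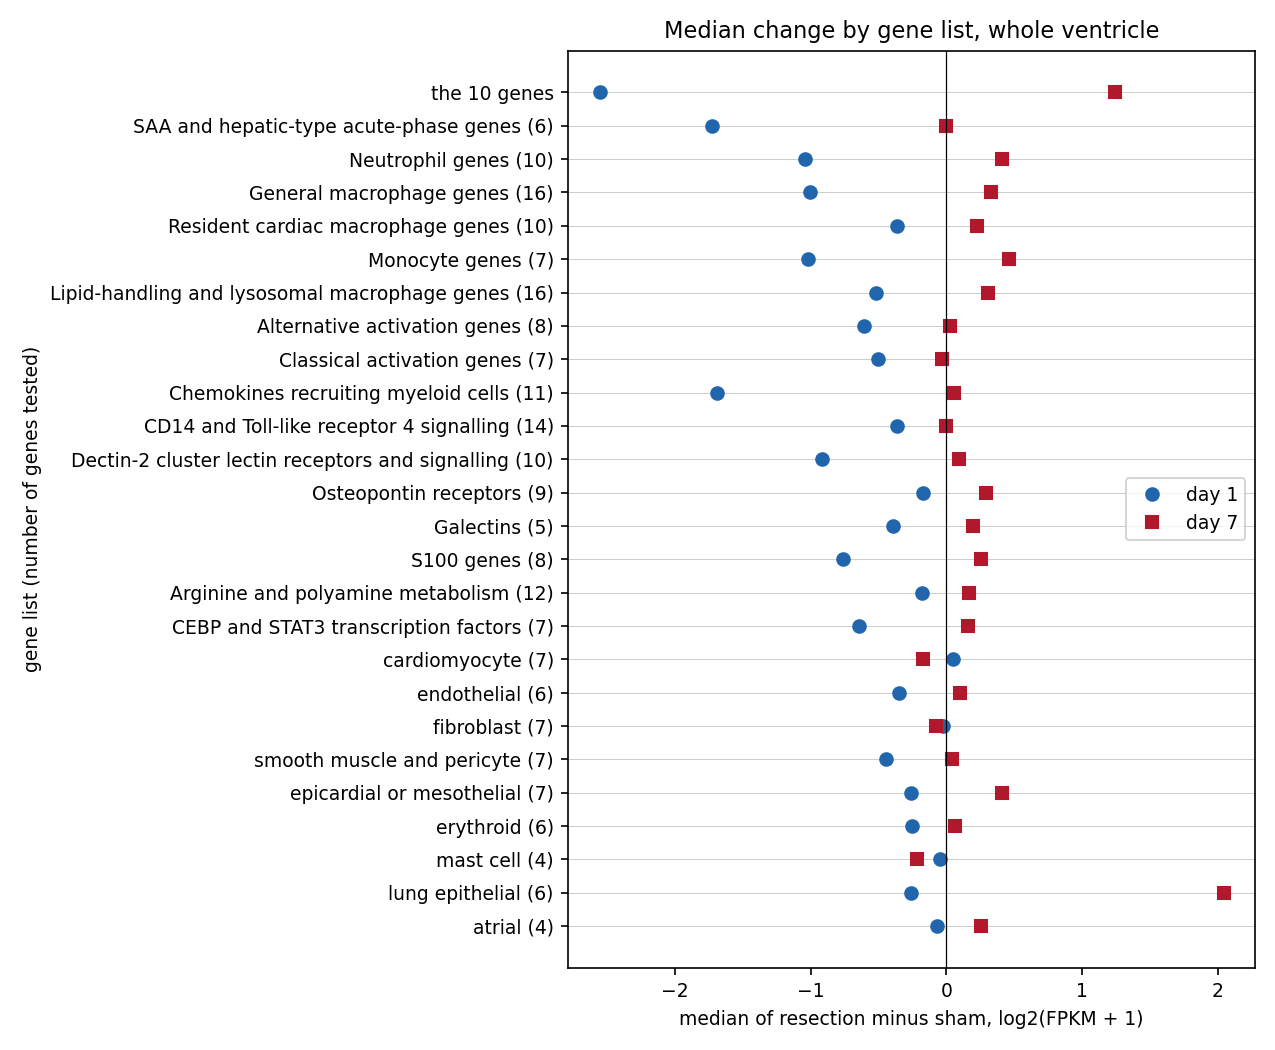
Median resection minus sham difference, in log2(FPKM + 1), of each gene list in ventricle, with the number of genes tested in brackets, day 1 as blue circles and day 7 as red squares. On day 1 the 10 genes have the lowest median (-2.56) and the acute-phase and chemokine lists come next (-1.73 and -1.69). The chemokine list includes genes that passed the filter only through day 1 sham. The 10 genes were chosen from these same surgery libraries, so their rank is not independent of the choice. On day 7 the lung epithelial list has the highest median (2.04).

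The difference between the days was tested directly. The resection effect on day 7 minus that on day 1 was positive for all 10 genes (limma, 10 of 10 called, against 5.69% of gene models called higher). It was 5.44 ± 0.48 for Spp1 and 4.77 ± 0.30 for Saa3 at the top, and 2.25 ± 0.39 for Chi3l3 at the bottom. The median was 3.15, against 0.27 over all gene models. Fitted on these 4 groups alone, 6 of the 10 passed. Day 1 sham, in which all 10 genes lay above unoperated neonatal ventricle, enters this difference. The result for the 10 genes is therefore partly set by their choice. The call for Clec4d is a description here too, since that gene passed the filter only through day 1 sham. Of the 151 pathway genes 57 were called higher and none lower, 4 of 6 acute-phase and 7 of 11 chemokine genes among them. Pathway genes that passed the filter only through day 1 sham include Clec4e, Il1b, Ccl3, Cxcl2, Cxcl3 and Cxcl5, and any call for these is a description.

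Within each operation the genes followed different courses. Days after surgery and age of the animals cannot be told apart in these comparisons, and the labels do not give the age at surgery. Between the sham groups, day 7 was lower than day 1 for all 10 genes (limma, 10 of 10, against 11.7% of gene models called lower). The fall was 4.66 ± 0.22 for Arg1 and 4.65 ± 0.21 for Saa3 at the largest, and 1.18 ± 0.20 for Gpnmb at the smallest. Day 1 sham is the group in which all 10 genes lay above unoperated neonatal ventricle, the contrast behind their choice. A fall from that group is therefore partly set by the choice, and Clec4d passed the filter only through it. Between the resection groups, Gpnmb was higher on day 7 than on day 1 (1.76 ± 0.20; limma, adjusted p = 0.000238), where 12.9% of gene models were called higher. Arg1 was lower (-1.46 ± 0.22; limma, adjusted p = 0.00122), where 3.03% were called lower. The other 8 did not pass, with differences from -0.16 for S100a9 to 0.86 for Lgals3. Leaving out the first day 1 resection library added Lgals3 (1.29) and leaving out the second added Cd14 (0.97). Lung epithelial genes were also higher on day 7 than on day 1 after resection, with 6 of 6 called, as were 6 of 6 endothelial, 5 of 7 fibroblast and 5 of 16 general macrophage genes, and their part was not tested.

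In unoperated ventricle most of the genes stayed low with age. From P0 to P4, P7 and adult, mean S100a9 was 7.11, 2.54, 2.41 and 4.67 FPKM, and mean Cd14 was 0.949, 1.01, 1.87 and 3.75 FPKM. In adults against P7, Cd14 (0.72 ± 0.24; limma, adjusted p = 0.0281) and S100a8 (1.19 ± 0.40; limma, adjusted p = 0.032) were called higher, 2 of 10 against 10.7% of gene models. General macrophage genes summed to 193 and 255 FPKM in adults, against 90.5 and 83.6 FPKM at P7. Both calls failed without either P7 library and without the second adult library, and 1 call was left without the first adult library.

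In isolated cardiomyocytes 5 of the 10 genes reached 1 FPKM in at least 2 libraries. Saa3 was at 0.509, 4.21 and 61.0 FPKM after resection, against 0.0982, 0 and 8.40 FPKM after sham, and ranged from 0 to 0.164 FPKM in unoperated P0 and P4 cells. Cd14 was at 0.858, 3.42 and 6.21 FPKM after resection, against 1.12, 1.305 and 2.90 FPKM after sham. Libraries of the groups overlapped for both genes, and within each group the third library was the highest. The third resection library also had the highest sums of lung epithelial genes (1173 FPKM) and of erythroid genes (68738 FPKM, against 4907 and 10050 FPKM in the other resection libraries). S100a8 was at 0.163, 2.19 and 7.09 FPKM after resection, against 1.11, 0.964 and 7.31 FPKM after sham. S100a9 was at 0.842, 1.48 and 9.29 FPKM after resection, against 1.12, 1.22 and 7.48 FPKM after sham. Lgals3 was at 1.49, 2.13 and 1.85 FPKM after resection, against 0.286, 0.602 and 2.24 FPKM after sham, also with overlap.

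None of these 5 genes was called between isolated day 7 resection and sham (limma, 0 of 5, against 1.08% of 13143 gene models called in either direction). Of the 5, 0 had an unadjusted p under 0.05, against 12.8% of all gene models. Saa3 had the largest difference, 1.85 ± 1.07 (limma, adjusted p = 0.505). The other 5 members did not reach 1 FPKM in 2 of the 12 isolated libraries and were not tested: Spp1 was at most 0.287 FPKM and Arg1 at most 0.261 FPKM in any of them. General macrophage genes summed to 25.0, 19.6 and 52.6 FPKM after resection, against 7.87, 5.53 and 15.6 FPKM after sham, and 1 of 5 tested was called, Lyz2 (2.45 ± 0.49). All 6 lung epithelial genes and all 4 atrial genes were called higher in isolated resection cells, and their part in the values of the members was not tested. Atrial genes summed to 723, 1291 and 739 FPKM after resection, against 40.9, 55.7 and 90.8 FPKM after sham.

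The explants held another combination. Spp1 was listed at 0 in both 0 h libraries, at 2.42 and 0.569 FPKM at 24 h, 3.25 and 2.27 FPKM at 48 h, and 10.8 and 51.3 FPKM at 72 h. Gpnmb was at 0 and 0.00739 FPKM at 0 h, 0.200 and 0.117 FPKM at 24 h, 0.951 and 1.33 FPKM at 48 h, and 3.59 and 2.78 FPKM at 72 h. Lgals3 was at 1.66 and 0.0158 FPKM at 0 h, 1.099 and 2.20 FPKM at 24 h, 2.82 and 2.79 FPKM at 48 h, and 14.2 and 10.3 FPKM at 72 h. The 72 h libraries were above all earlier ones for all 3 genes. S100a8, S100a9 and Chi3l3 were listed at 0 in all 8 explant libraries, and Saa3, Arg1, Clec4d and Cd14 stayed at or below 0.472 FPKM.

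At 72 h against 0 h in log2(FPKM + 1), a scale on which the size for a gene listed at 0 depends on the pseudocount, Spp1 differed by 4.64 ± 0.67, Lgals3 by 2.996 ± 0.45 and Gpnmb by 2.05 ± 0.22 (limma, SE). These were the 3 of 10 members that passed the filter on low values, and they passed it through the later times, where they are high, so the differences are a description and no p is given. For comparison, 46.8% of 12246 gene models were called higher at 72 h with a median difference of 0.76. Scaled by median of ratios, that median was 0.03 and the 3 members' differences ran from 1.76 to 4.26. At 24 h against 0 h none of the 3 was called (limma, against 17.9% of gene models called in either direction). Of the 3, 0 had an unadjusted p under 0.05, against 35.1% of all gene models. Spp1 at 24 h passed with a pseudocount of 0.1 and in a single fit over all 36 libraries.

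Other genes of these pathways were high in explants. All 3 general macrophage genes that passed the filter were higher at 72 h than at 0 h, and the list's other 13 did not pass. None of the 3 reached 1 FPKM in both 0 h libraries. They passed through later times, so their differences are a description. Cd68, a lysosomal glycoprotein used as a macrophage marker, was at 127 and 70.5 FPKM at 72 h, against 1.08 and 0.398 FPKM at 0 h (5.81 ± 0.43), and heme oxygenase Hmox1 was at 820 and 339 FPKM, against 17.8 and 10.4 FPKM (5.18 ± 0.51). Csf1r, the receptor for the macrophage growth factor CSF1, was at 6.58 and 7.39 FPKM at 72 h, against 0.373 and 0.154 FPKM at 0 h (2.66 ± 0.26), and lysozyme Lyz2 at 2.49 and 4.79 FPKM, against 0.694 and 0.414 FPKM (1.54 ± 0.43). The pan-leukocyte gene Ptprc was at 0.00971 and 0.0375 FPKM at 72 h, and Tyrobp at 0.560 and 0.196 FPKM, both named after their values were seen. Over all gene models 46.8% were called higher at 72 h, the share beside which the next counts stand. Of 6 osteopontin receptor genes tested 4 rose at 72 h, among them Cd44 (3.65 ± 0.27) and Itga5 (2.27 ± 0.44). Of 13 Toll-like receptor 4 signalling genes 9 rose, among them Tlr4 (2.40 ± 0.25). The S100 genes S100a6 (4.40 ± 0.49) and S100a11 (3.74 ± 0.44) rose, 2 of the 4 called of 7 tested. Over the same time 6 of 7 cardiomyocyte genes fell, led by Actc1 (-5.57 ± 0.23).

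**Figure D5:**
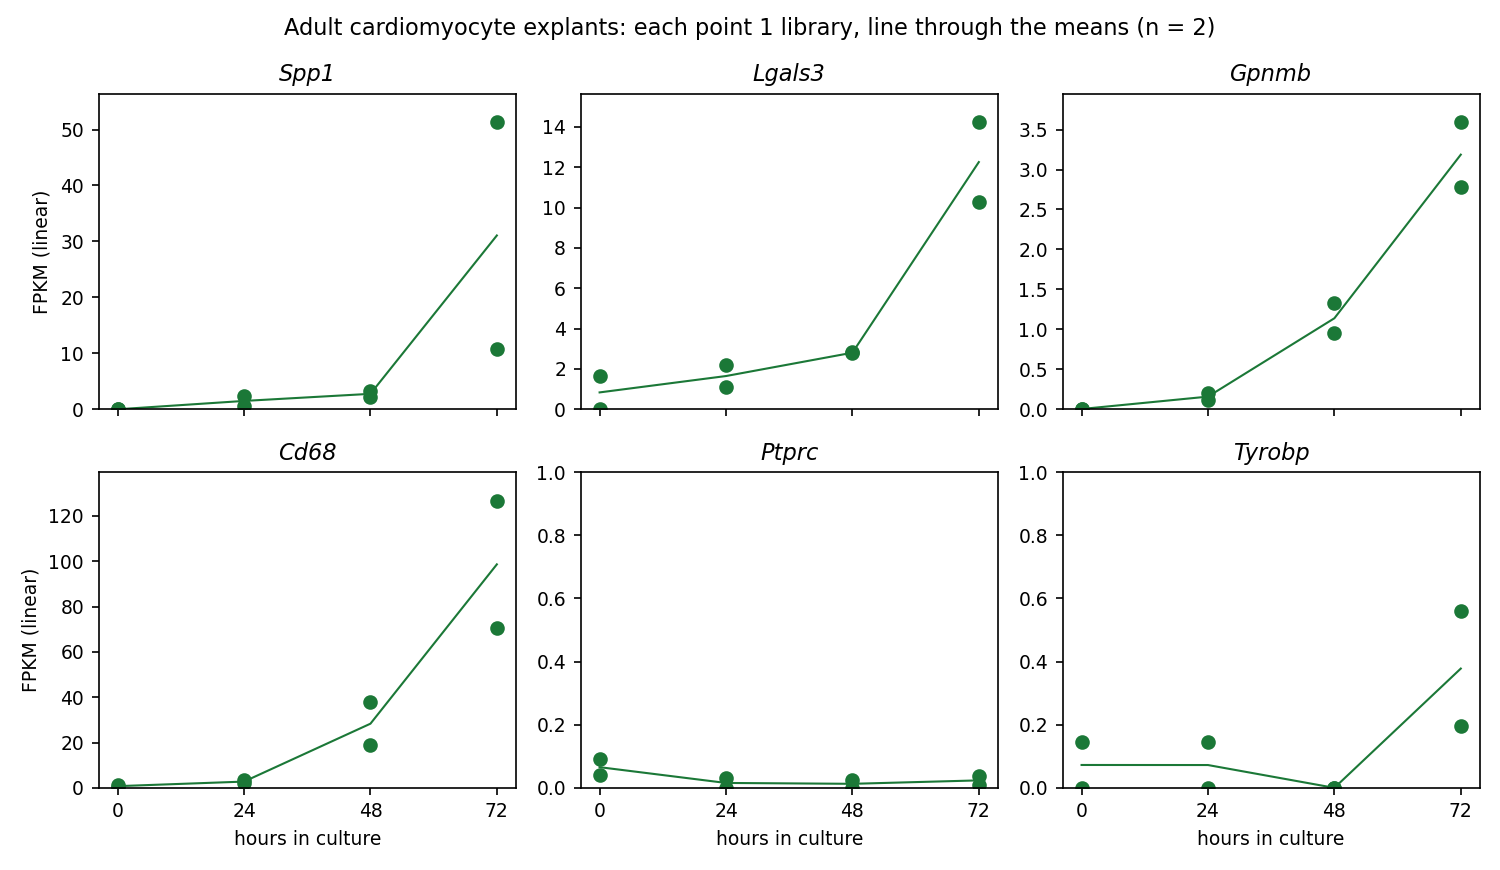
FPKM of Spp1, Lgals3 and Gpnmb (top) and of Cd68, Ptprc and Tyrobp (bottom) in adult explants against hours in culture, on linear axes that start at 0, with 1 point per library and a line through the means (n = 2). Spp1, Lgals3, Gpnmb and Cd68 are highest at 72 h, while Ptprc stays below 0.1 FPKM and Tyrobp at or below 0.560 FPKM.

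Likeness of pattern was described by Pearson's r of log2(mean FPKM + 1) over the 16 groups, which share libraries, a normalization and the surgery groups. S100a8 and S100a9 were most like each other (r = 0.991), followed by the neutrophil granule gene Ngp (0.963 with S100a8 and 0.952 with S100a9). Spp1 and Lgals3 were most like each other (r = 0.950), and Gpnmb had r = 0.909 with Spp1 and 0.891 with Lgals3. The genes closest to Gpnmb were the ribosomal protein genes Rps19 (0.934) and Rps3 (0.921) and the related pseudogene Rpl35a-ps5 (0.911). Clec4d and Arg1 both had 1100001G20Rik as the closest gene (0.974 and 0.976), and Clec4d had Itgam next (0.948). Saa3 was closest to Serpina3g (0.933), Ccl2 (0.927) and Hp (0.916), Cd14 to Ccl7 (0.934) and Chi3l3 to Bcl2a1b (0.967). Among the members, r was lowest between Gpnmb and Cd14 (0.292) and between Spp1 and Cd14 (0.342).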

How the data were processed

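Mouse heart RNA-seq values were deposited by the authors as FPKM per gene model, 36128 models by 36 libraries. Per the submitters' processing notes, the build was mm9 and the tools included TopHat 1.3.2, Bowtie 0.12.7, Cufflinks 1.2.1 and Cuffdiff, with no roles stated. The annotation is not given in the sources used here. Per the labels' protocols, RNA was extracted with Trizol and libraries followed an earlier protocol or a TruSeq kit on 2 kinds of sequencer, with no record of which library had which, so a batch could not be examined.

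Here the groups of each preparation (16 ventricle, 12 isolated and 8 explant libraries) were fitted with limma 3.58.1 (R 4.3.3) on log2(FPKM + 1), with a variance trend, for gene models with at least 1 FPKM in at least 2 libraries of the fit. Tests were two-sided, adjusted by Benjamini-Hochberg over all models tested and called at adjusted p under 0.05. The pseudocount understates differences of low genes. The procedure was tested on simulated data with independent normal noise and with differences placed only in genes of higher mean level. That setting does not cover low genes or noise shared within a library. Figures and descriptions used Python 3.11.15 with pandas 2.3.3, NumPy 2.4.6 and Matplotlib 3.10.9.

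The 10 genes and the lists (17 pathway lists and 10 cell type lists) were chosen with earlier results of these data known. From each list and comparison at most the 2 called genes with the largest difference were named, or, where none was called, those with the smallest p. Ccr2, Trem2, Tlr4, Retnla, Clec4e, Ly6g, Csf3r and Saa1 were open to naming throughout. The 3 genes most like each member were taken by Pearson's r over the group means. Alternatives were another pseudocount, no filter, 2 scalings, a replicate block, other sets of libraries in the fit, no variance trend, other unoperated ages and leaving out each library.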

Additional observations from a re-analysis of the deposited data

Results flagged for a closer look

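The difference between resection and sham depended on the day for all 10 genes, tested as the resection effect on day 7 minus that on day 1 in ventricle (limma, Benjamini-Hochberg adjusted over 14306 gene models, log2(FPKM + 1)). It was 4.77 for Saa3 (adjusted p = 7.98e-06), 5.44 for Spp1 (adjusted p = 0.000248) and 4.32 for Lgals3 (adjusted p = 0.000479). Gpnmb had 2.94, Arg1 3.20 and Clec4d 3.10, and Cd14 had 2.53. Chi3l3 had the smallest, 2.25 (adjusted p = 0.00791), and the calprotectin genes had 3.36 (S100a8) and 2.83 (S100a9). Over all gene models 5.69% were called higher, and fewer of the 10 genes passed when these groups were fitted alone. The genes were chosen from the same surgery libraries, so these differences are partly set by the choice, and Clec4d passed the filter only through day 1 sham. Both resection libraries lay below both sham libraries on day 1 for 10 of 10 genes, where 39% of all gene models did so. On day 7 both lay above the sham libraries for 8 of 10, where 34.2% did so. Leukocyte and lung epithelial marker sums also differed between these groups, and their part was not tested.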

How the results depend on the processing

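The day 1 resection and sham difference kept its direction for all 10 genes under every alternative, with 4 called in the compared groups alone and 7 to 10 when 1 library was left out. The day 7 count of 3 was 0 with a pseudocount of 0.1, 1 with quantile normalization, 0 in the compared groups alone, and 0 to 5 without 1 library. The difference between days had 6 calls in the compared groups alone. Adult against P7 had 0 calls with no filter, 4 under median-of-ratios scaling, 4 under quantile normalization, 0 in a single fit, and 0 to 1 without 1 library. Explants at 24 h had 1 call with a pseudocount of 0.1 and 1 in a single fit. The replicate block left every count unchanged (10, 3 and 10 for day 1, day 7 and the difference between days). Replicate numbers were not shown to pair the samples, with correlations of deviations of -0.037 on day 1, -0.126 on day 7 and 0.041 to 0.263 in isolated cells, where 4 of 6 libraries correlated best with their own number. In explants, with 2 numbers only, they were 0.552 (24 h against 0 h) and 0.385 (72 h against 0 h), and the crossed pairing on day 7 gave 3 calls. The cause of these shifts was not tested.

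Median differences from unoperated neonates moved as follows. For day 1 resection they were 2.518 with a pseudocount of 0.1, 1.771 under quantile normalization, 1.03 against P0 alone and 1.16 to 1.609 without 1 library. For day 1 sham they were 4.797 with a pseudocount of 0.1, 3.149 against P0 alone and 3.443 to 4.228 without 1 library. For day 7 resection they were 2.614, 1.332 and 1.74 to 1.871 in the same order. For day 7 sham they were 1.056 with a pseudocount of 0.1, 0.914 under quantile normalization, 0.331 against P0 alone and 0.382 to 0.551 without 1 library.

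Some single-gene values changed sign. On day 7 Cd14 ran from -0.057 to 0.413 without 1 library. In resection on day 7 against day 1, Saa3 was -0.026 (median of ratios) and -0.11 (quantile), and -0.256 to 0.482 without 1 library. There S100a8 was -0.162 and -0.135, and -0.191 to 0.219, while S100a9 ran from -0.563 to 0.239. Spp1 in adults against P7 was 0.017 under quantile normalization. In isolated cells S100a9 was -0.032 (median of ratios) and -0.084 (quantile) and ran from -0.677 to 0.734, and S100a8 from -0.755 to 0.644. Lgals3 in explants at 24 h ran from -0.037 to 1.351. Against unoperated ventricle, day 1 resection had Cd14 at 0.2 under quantile normalization and from -0.532 to 0.061 without 1 library, and Gpnmb at -0.008 against P0. Day 7 sham had Chi3l3 from -0.093 to 0.833 without 1 library, S100a8 at -0.035 and S100a9 at -0.171 against P0, and Cd14 at -0.098 against P7 and -0.011 with adults included. Depth is unknown, so low levels carry no counting error here, and 2 or 3 libraries in a group limit every test.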
